A study of Mus musculus with 6 samples.

Results

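The let-7 family is the group of mature microRNAs (miRNAs) that share the let-7 seed, and miR-98-5p belongs to it by sequence. The members were chosen by name: the guide arms mmu-let-7a-5p, mmu-let-7b-5p, mmu-let-7c-5p, mmu-let-7d-5p, mmu-let-7e-5p, mmu-let-7f-5p, mmu-let-7g-5p, mmu-let-7i-5p, mmu-let-7k and mmu-miR-98-5p (mmu for mouse, left out below), which make 10 of the 1881 mouse miRNAs on the array. They were measured in exosomes, the small vesicles that cells release, from RAW 264.7 cells, a mouse macrophage line. In the LPS group (3 samples) the cells had been given 2 µg/mL lipopolysaccharide (LPS), a molecule of the outer membrane of Gram-negative bacteria that macrophages sense with TLR4, and the medium was taken after 72 h. The control group (3 samples) consisted of exosomes from untreated cells of the same line. No culture time is recorded for the controls, so culture time and LPS cannot be told apart. In both groups the medium was concentrated at 1500 × g for 20 min and run over a size-exclusion column, and fractions 7 to 9 of 0.5 mL were taken as exosomes. The labels do not state whether the 3 samples of a group were separate cultures. The p-values therefore describe a spread that could be technical.

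A miRNA guides the Argonaute protein to mRNAs whose 3′ untranslated regions pair with its seed, and those mRNAs are then degraded or poorly translated. Let-7 was first described in Caenorhabditis elegans as a gene of developmental timing. In mammals the family is abundant in differentiated cells, where it represses Ras, Myc, Hmga2 and Lin28 mRNAs, and the LIN28 proteins in turn block the maturation of let-7 precursors. In macrophages, let-7 miRNAs have been linked to the control of Tlr4 and of cytokine mRNAs such as Il6 and Il10. Because the seed is shared, the members are predicted to bind overlapping sets of mRNAs.

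All members carry 1 seed and differ elsewhere, so their sequences are given first. They are the mature forms in RefSeq (build GRCm38.p6), which held all 10, written 5′ to 3′, and the capitals mark the seed, bases 2 to 8.
let-7a-5p: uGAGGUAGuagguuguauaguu
let-7b-5p: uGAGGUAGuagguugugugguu
let-7c-5p: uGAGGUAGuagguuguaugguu
let-7d-5p: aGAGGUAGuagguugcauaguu
let-7e-5p: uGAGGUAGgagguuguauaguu
let-7f-5p: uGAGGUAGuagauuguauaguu
let-7g-5p: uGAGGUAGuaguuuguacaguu
let-7i-5p: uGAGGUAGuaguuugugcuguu
let-7k: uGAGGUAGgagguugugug
miR-98-5p: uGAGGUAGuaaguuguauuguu
Of the 22 positions of the 9 members that are 22 bases long, 14 are the same in all of them. The other 8 positions lie between 1 and 19, outside the seed. Counted from 1 at the 5′ end and with the let-7a-5p base first, let-7c-5p differs from let-7a-5p only by A19G, let-7e-5p by U9G and let-7f-5p by G12A. A pair of changes separates let-7a-5p from let-7b-5p (A17G and A19G), let-7d-5p (U1A and U16C), let-7g-5p (G12U and U18C) and miR-98-5p (G11A and A19U). Let-7i-5p has 4 changes, G12U, A17G, U18C and A19U. The shorter let-7k has U9G, A17G and A19G within its 19 bases.

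Each member has 2 probes on the array, and each probe was spotted 15 times. The probes pair with the miRNA from its 3′ end, and all but the brighter miR-98-5p probe leave out part of the 5′ end. They cover every base that tells members apart except base 1 of let-7d-5p. The brighter probe of each member, which stands for it below, is printed 5′ to 3′, with capitals where it differs from the let-7a-5p probe at the same base of the miRNA.
let-7a-5p probe: aactatacaacctactacct
let-7b-5p probe: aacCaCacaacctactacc
let-7c-5p probe: aacCatacaacctactacc
let-7d-5p probe: aactatGcaacctactacc
let-7e-5p probe: aactatacaacctCctacc
let-7f-5p probe: aactatacaaTctactacctc
let-7g-5p probe: aactGtacaaActactacctc
let-7i-5p probe: aacAGCacaaActactacctc
let-7k probe: CaCacaacctCctacc
miR-98-5p probe: aacAatacaacTtactacctca
The probes of let-7a-5p have 1 mismatch to let-7c-5p, let-7d-5p, let-7e-5p and let-7f-5p. Those of let-7c-5p have 1 mismatch to let-7a-5p and let-7b-5p, and those of let-7k have 1 mismatch to let-7b-5p. The probes of let-7b-5p have 1 mismatch to let-7c-5p, and those of let-7d-5p, let-7e-5p and let-7f-5p have 1 mismatch to let-7a-5p. Every probe of let-7g-5p, let-7i-5p and miR-98-5p has more than 1 mismatch to each of the other members. How much a probe binds its near neighbours was not measured in these files, so each member's signal could hold part of another's.

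By the files' own coordinates (build mm9), the let-7b-5p probe lies at chr15:85537759-85537776 on the plus strand and that of let-7d-5p at chr13:48631400-48631417 on the minus strand. The let-7e-5p probe is placed at chr17:17967334-17967351 (plus), the let-7g-5p probe at chr9:106081179-106081198 (plus), the let-7i-5p probe at chr10:122422703-122422722 (minus) and the miR-98-5p probe at chrX:148347773-148347793 (plus). A probe with 2 places cannot tell the genes apart. The let-7a-5p probe has places at chr9:41344817-41344836 (plus) and chr13:48633562-48633581 (minus), the let-7c-5p probe at chr15:85537049-85537067 (plus) and chr16:77599920-77599938 (plus), and the let-7f-5p probe at chr13:48633206-48633226 (minus) and chrX:148346897-148346917 (plus). The files give no place for let-7k. In the GRCm38.p6 gene table, used for names and neighbours only, Mirlet7a-1, Mirlet7f-1 and Mirlet7d neighbour each other within 10 kb, as do Mirlet7c-2 and Mirlet7b within the noncoding RNA gene Lncppara. Mirlet7f-2 and Mir98 lie within Huwe1, Mirlet7e lies within Spaca6 beside Mir99b and Mir125a, Mirlet7c-1 lies beside Mir99a, and Mirlet7g lies within Wdr82. Mirlet7i and Mir7k, the let-7k gene, have no miRNA neighbour in that window. The RefSeq sequences used named only Mirlet7a-1 for let-7a-5p, so the neighbours of its place on chr9 are not given here.

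The 6 arrays shared 1 slide and 1 scan and had no saturated spots. The LPS arrays detected 428 ± 17.1 miRNAs and the control arrays 219 ± 8.14 (SD, n = 3 each). The 75th percentile of the processed signal over the 198 miRNAs seen on every array was 2229 ± 180 in LPS and 477 ± 41.0 in control (SD, n = 3 each), a 4.67-fold difference, while the geometric mean of the spiked-in RNAs was 2328 ± 199 in LPS and 2649 ± 69.6 in control (SD, n = 3 each). Each array was therefore divided by its own 75th percentile over these 198 miRNAs, and every change below is on that scale unless it is called unscaled. The part of this brightness in the changes was not tested beyond the other scalings given at the end. The number of vesicles in a sample and the amount of a miRNA in each vesicle cannot be told apart in such bulk RNA. The 6 fixed macrophage miRNAs, miR-155-5p, miR-146a-5p, miR-21a-5p, miR-223-3p, miR-142a-3p and miR-142a-5p, were all detected in LPS, and 5 of them on all 6 arrays. Their summed scaled signal ran from 28298 to 31294 in LPS and from 11189.8 to 11559.9 in control. Most of it came from miR-21a-5p (17168 to 18841 in LPS, 6884 to 7251 in control) and miR-146a-5p (9279 to 10594 and 3929 to 4026). MiR-223-3p supplied only 193 to 196 in LPS and 91.2 to 93.2 in control. Of the 7 serum and erythroid markers on the array, 6 were detected on no array, with miR-451a, miR-144-3p and miR-122-5p among those 6. The remaining marker, miR-192-5p, was detected on the LPS arrays alone and passed the limma test below as higher (log2 change 1.099). The summed signal of the 7 was 101 to 110.02 in LPS, of which miR-192-5p supplied 70.9 to 72.2, and 113 to 137 in control. Of 6 epithelial markers 5 were detected on no array (sums of 32.6 to 37.2 in LPS and 23.9 to 42.0 in control), and none of the 8 mesenchymal and muscle markers was detected (7.13 to 12.9 in LPS and 45.9 to 53.5 in control). The other epithelial marker, miR-200c-3p, was detected on the LPS arrays alone and passed the limma test below as higher (log2 change 0.78). For undetected markers the sums are background divided by the array's scaling factor, 1.97 to 2.28 in LPS and 0.42 to 0.50 in control. No difference between the groups is read from them.

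Exosomes from LPS-treated cells carried more of the let-7 family than control exosomes, relative to the median of the miRNAs detected on all 6 arrays. All 10 members passed the test as higher in LPS (limma, Benjamini-Hochberg adjusted p of at most 1.87e-05), where 65.5% of the 412 miRNAs tested did so; with normexp background correction 7 of the 10 did. Let-7e-5p and let-7k entered the test through the LPS arrays alone, so the 8 members detected on all 6 arrays carry the comparison. These 8 changed by 0.96 to 2.39 on the log2 scale, with a median of 1.78, and the median over all 198 miRNAs detected on every array was 0.77. All 8 were called higher, against 58.1% of the 198 (38.4% of the 198 were called lower), and 7 of the 8 were called and at least 2-fold higher, against 40.9%. A rise of this size was not particular to the family. MiR-103-3p changed by 2.62, miR-26b-5p by 2.38, miR-140-3p by 1.96 and miR-29a-3p by 1.66. Of the 198, 115 were called higher and 76 lower. The members supplied 8.06%, 7.95% and 7.997% of the summed detected signal on the LPS arrays, against 3.33%, 3.30% and 3.46% on the control arrays, a ratio of 2.38.

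**Figure D1:**
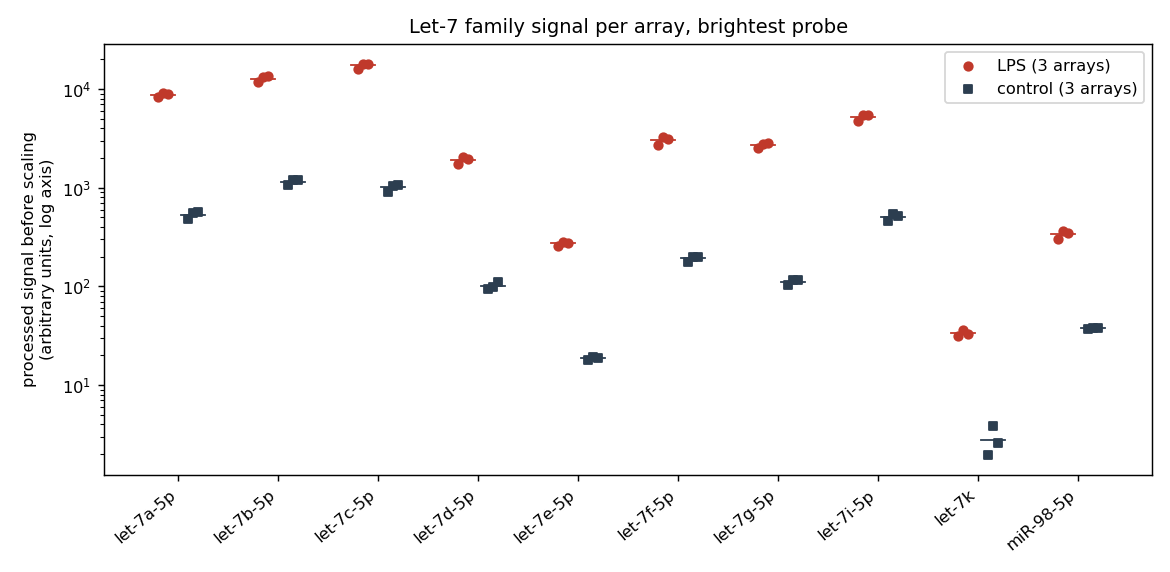
Processed signal of each member's brighter probe before scaling (arbitrary units, log axis) on 3 LPS arrays (circles) and 3 control arrays (squares), with a line at each group's mean. In every member the 3 LPS arrays sit above the 3 control arrays, from 31.5 against 3.80 at the nearest points for let-7k to 15934 against 1067 for let-7c-5p. The LPS arrays were brighter for most miRNAs on this scale. The median unscaled fold was 16.0 for the 8 members detected on all 6 arrays and 7.96 for all 198 such miRNAs, of which 156 were called higher without scaling.

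The largest change in the family was that of let-7g-5p, whose gene lies within Wdr82. Its processed signal was 2554, 2791 and 2846 on the LPS arrays, against 102, 116 and 116 on the control arrays, with no overlap between the groups. Before scaling most miRNAs were brighter in LPS, and 156 of the 198 detected on all 6 arrays were then called higher. After scaling let-7g-5p averaged 1262 ± 37.0 in LPS and 241 ± 5.15 in control (SD, n = 3 each) and rose 5.24-fold (log2 change 2.39, SE 0.04, limma adjusted p = 2.14e-08). Let-7d-5p, whose gene lies beside Mirlet7a-1 and Mirlet7f-1, came next. It gave 1748, 2045 and 1968 on the LPS arrays, against 93.6, 98.9 and 109.7 on the control arrays, again without overlap. Its scaled signal was 887 ± 13.4 in LPS and 218 ± 16.1 in control (SD, n = 3 each), a 4.08-fold rise (2.03, SE 0.06, limma adjusted p = 1.83e-07).

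Let-7a-5p and its 1-base neighbours let-7c-5p and let-7f-5p changed by amounts close to each other. Let-7c-5p has been reported to dampen inflammatory polarisation of mouse macrophages. Its signal was 15934, 18088 and 18172 on the LPS arrays, against 914, 1039 and 1067 on the control arrays, a 3.70-fold rise after scaling (1.89, SE 0.04, limma adjusted p = 5.21e-08). Let-7a-5p, known in human cells as a repressor of IL6 mRNA, had 8273, 9055 and 8851 on the LPS arrays, against 482, 555 and 564 on the control arrays. It rose 3.51-fold (1.81, SE 0.05, limma adjusted p = 9.12e-08). Let-7f-5p, reported to target the NF-kB inhibitor Tnfaip3 in infected mouse macrophages, had 2724, 3246 and 3114 on the LPS arrays, against 178, 201 and 200.3 on the control arrays, a 3.35-fold rise (1.74, SE 0.04, limma adjusted p = 5.82e-08). In each of these members the lowest LPS array lay above the highest control array, before and after scaling. After scaling this also held for 58.6% of the 198 miRNAs detected on all 6 arrays.

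Let-7b-5p, let-7i-5p and miR-98-5p changed less. Let-7b-5p, which has been reported to act as a ligand of TLR7 in mouse neurons, gave 11690.3, 13183 and 13472 on the LPS arrays, against 1073, 1192 and 1198 on the control arrays. It rose 2.37-fold after scaling (1.24, SE 0.04, limma adjusted p = 2.61e-07), with scaled means of 5903 ± 98.3 in LPS and 2493 ± 79.5 in control (SD, n = 3 each). Let-7i-5p, known from human bile duct cells as a repressor of TLR4, gave 4703, 5466 and 5527 on the LPS arrays, against 457, 548 and 523 on the control arrays. Its rise was 2.201-fold (1.14, SE 0.03, limma adjusted p = 1.72e-07). MiR-98-5p, reported in mouse macrophages to target Il10 mRNA, lay close to background in the control samples, although well above it on every array. It had 305, 365 and 349.9 on the LPS arrays, against 37.0, 37.6 and 37.6 on the control arrays, and rose 1.94-fold (0.96, SE 0.06, limma adjusted p = 9.98e-06). The groups did not overlap in any of these members, before or after scaling. After scaling the LPS arrays lay above all control arrays for 58.6% of the 198 miRNAs detected on all 6 arrays. The call of miR-98-5p was lost with normexp background correction (log2 change −0.10, limma adjusted p = 0.126).

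Let-7e-5p and let-7k were not well above background on any control array, so only a bound can be given for them. Let-7e-5p, which shares a locus with miR-99b and miR-125a and has been described in mouse macrophages as regulated by Akt1 and as a repressor of Tlr4, was at 256, 285 and 278 on the LPS arrays, against 18.1, 19.4 and 18.8 on the control arrays. It was at least 1.81-fold higher in LPS, where the control side is set at each array's lowest signal well above background, and the measured log2 means were 6.98 in LPS and 5.34 in control (limma adjusted p = 2.14e-07). With normexp this call was lost (−0.066, limma adjusted p = 0.293). Let-7k, a shorter family member registered for mouse, was at 31.5, 35.8 and 32.8 on the LPS arrays, against 1.94, 3.80 and 2.58 on the control arrays. Its brighter probe was well above background on 2 of the 3 LPS arrays and its dimmer probe on no array. It entered the test through the gene detection flag, set on all 3 LPS arrays. Let-7k was called higher (limma adjusted p = 1.87e-05), but the control bound lies above its LPS signal, so no fold is read from it, and with normexp it was called lower (−0.64).

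Among the 198 miRNAs detected on all 6 arrays, ordered from the highest change to the lowest, let-7g-5p stood at rank 14, let-7d-5p at 24, let-7c-5p at 27, let-7a-5p at 30 and let-7f-5p at 32. Let-7b-5p followed at rank 63, let-7i-5p at 70 and miR-98-5p at 84, so that all 8 members lay above the median of the 198. Relative to that median, let-7g-5p was 1.62 higher on the log2 scale and let-7d-5p 1.26, while let-7i-5p was 0.37 higher and miR-98-5p 0.19. The 3 LPS arrays lay above the 3 control arrays for all 8, as they did for 58.6% of the 198.

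**Figure D2:**
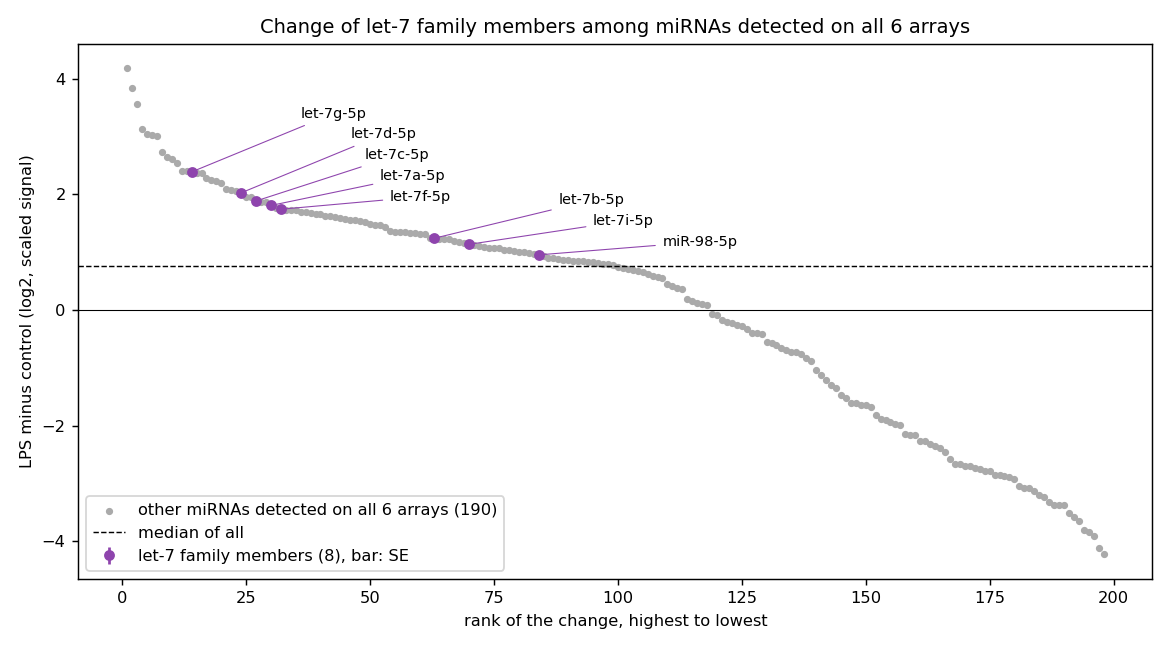
Log2 change, LPS minus control, of the 198 miRNAs detected on all 6 arrays against the rank of the change; the 8 let-7 family members are named, with bars for the SE, and the dashed line is the median of all 198 (0.77). The members lie between rank 14 (let-7g-5p, 2.39) and rank 84 (miR-98-5p, 0.96), all above the dashed line.

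The members did not change by the same amount. Each was set against the mean of the 8 members on the same array, a measure from which the scaling of the array cancels and in which only the change between groups is read. Let-7g-5p gained 0.74 on the log2 scale relative to this mean in LPS against control, let-7d-5p gained 0.38, let-7c-5p 0.24, let-7a-5p 0.16 and let-7f-5p 0.09. MiR-98-5p stood at −0.69, let-7i-5p at −0.51 and let-7b-5p at −0.41, although their own scaled changes were positive (0.96, 1.14 and 1.24). The 8 deviations balance out on each array by construction, so some must be negative and the 8 tests depend on each other. The SD of the measure over the 3 arrays of a group was at most 0.0828, seen for miR-98-5p in control. For each of the 8 members the LPS and control arrays did not overlap, and the two-sided exact permutation p was 0.1, the smallest that 3 against 3 arrays allow (0.1 after Benjamini-Hochberg adjustment over the 8 members). No p under 0.05 can be reached in this design. These sizes and their order depended on the background correction. With normexp let-7c-5p gained most, 0.58, followed by let-7g-5p (0.51), let-7a-5p (0.43), let-7f-5p (0.12) and let-7d-5p (0.11), while let-7b-5p stood at −0.049, let-7i-5p at −0.24 and miR-98-5p at −1.46. The gain of let-7f-5p was −0.0073 when the mean of its 2 probes was used in place of the brighter one.

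**Figure D3:**
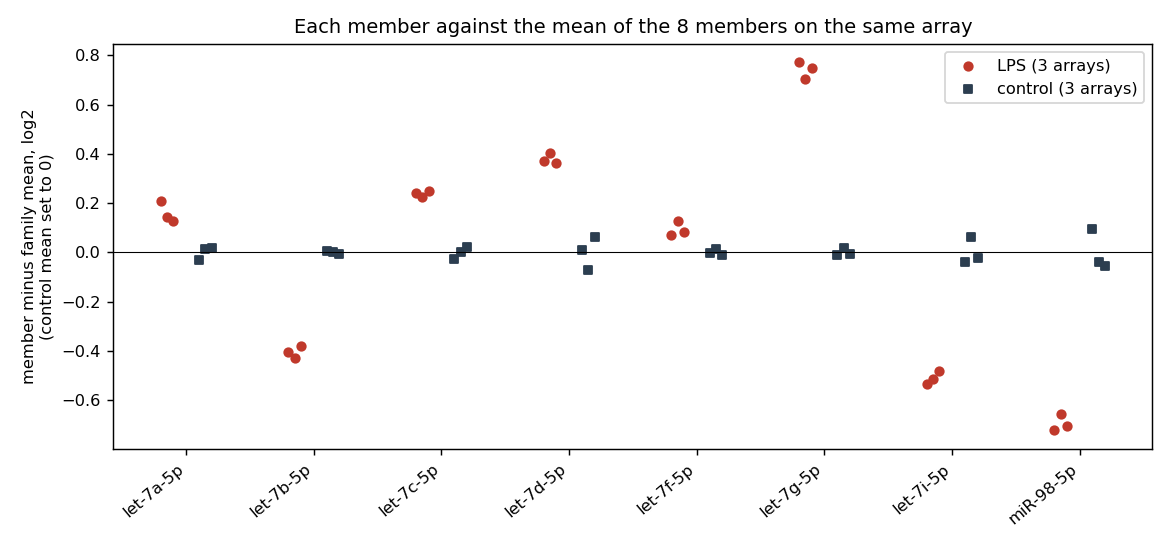
Each member's log2 signal minus the mean of the 8 members on the same array, with the control mean of each member set to 0, for 3 LPS arrays (circles) and 3 control arrays (squares). Let-7g-5p lies highest in LPS, with a gain of 0.74, and miR-98-5p lowest, at −0.69; with normexp the highest is let-7c-5p.

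Among the 8 members detected on all 6 arrays, those that differ by 1 or 2 bases were compared in 11 pairs. Each value is the change of the first minus the change of the second. Let-7e-5p, which is 1 base from let-7a-5p, and let-7k were detected on no control array and were left out. Let-7b-5p and let-7c-5p, which are separated by G17A, differed by −0.64 (SD of the log2 ratio over arrays 0.0124 in LPS and 0.0321 in control). Let-7a-5p and let-7c-5p, separated by A19G, differed by only −0.08 (SD 0.0462 in LPS and 0.0103 in control). Let-7a-5p and let-7f-5p, separated by G12A, differed by 0.07 (SD 0.0642 in LPS and 0.0296 in control), and this was the one pair in which the groups overlapped (two-sided exact permutation p = 0.2). Let-7g-5p and let-7i-5p, separated by A17G and A19U, had the largest difference of the 11 pairs, 1.25. The remaining differences were 0.57 for let-7a-5p minus let-7b-5p, −0.22 for let-7a-5p minus let-7d-5p, −0.58 for let-7a-5p minus let-7g-5p and 0.85 for let-7a-5p minus miR-98-5p. They were 0.14 for let-7c-5p minus let-7f-5p, 0.93 for let-7c-5p minus miR-98-5p and −0.65 for let-7f-5p minus let-7g-5p. Apart from let-7a-5p with let-7f-5p, each pair had an exact permutation p of 0.1 (0.11 after adjustment over the 11 pairs), the smallest possible. The sign was not the same under every alternative, chosen after seeing the data. Let-7a-5p minus let-7d-5p turned to 0.071 with the dimmer probe of each member, 0.012 with quantile normalization and 0.32 with normexp. With quantile normalization let-7a-5p minus let-7c-5p turned to 0.25 and let-7c-5p minus let-7f-5p to −0.092. The other 8 pairs kept their sign with the dimmer probes, the mean over probes, quantile normalization and normexp. Their sizes moved, and with normexp let-7g-5p minus let-7i-5p was 0.76, let-7a-5p minus let-7g-5p −0.087, let-7a-5p minus miR-98-5p 1.89 and let-7c-5p minus miR-98-5p 2.04, the largest.

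Each probe was also tested by itself. Of the 20 probes of the family, 18 were well above background on the 3 arrays of at least 1 group, and all 18 were called higher in LPS, against 67.5% of the 665 probes tested (25.6% were called lower); the 2 probes of let-7k were not among them. Of these 18, 4 entered the test through the LPS arrays alone: both probes of let-7e-5p and the dimmer probe of miR-98-5p, which no control array had well above background, and the dimmer probe of let-7d-5p, which 1 control array did. The other 14 were well above background on all 6 arrays, and all 14 were called higher, against 54% of the 285 such probes (42.5% were called lower). The dimmer probe changed by 2.49 for let-7g-5p (SE 0.04), 2.02 for let-7c-5p (SE 0.04), 1.78 for let-7a-5p (SE 0.05) and 1.71 for let-7d-5p (SE 0.06). It changed by 1.55 for let-7f-5p, 1.42 for let-7b-5p, 1.24 for let-7i-5p and 1.06 for miR-98-5p. The order of the members was thus similar by either probe, with let-7g-5p first and let-7i-5p and miR-98-5p last among the 8. The dimmer miR-98-5p probe was not well above background on any control array, which gives at least 1.47-fold. The dimmer let-7e-5p probe changed by 1.06 (SE 0.12), and its bound was under 1, so its direction is not read. Over the 10 pairs of probes, the log2 ratio of the brighter to the dimmer differed between LPS and control by −0.18 (let-7b-5p) to 0.64 (let-7k, whose control values are at the floor), with exact permutation p from 0.1 to 0.4 (0.143 to 0.4 after adjustment over the 10). Among the members detected on all 6 arrays the largest such gap was 0.32, in let-7d-5p.

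**Figure D4:**
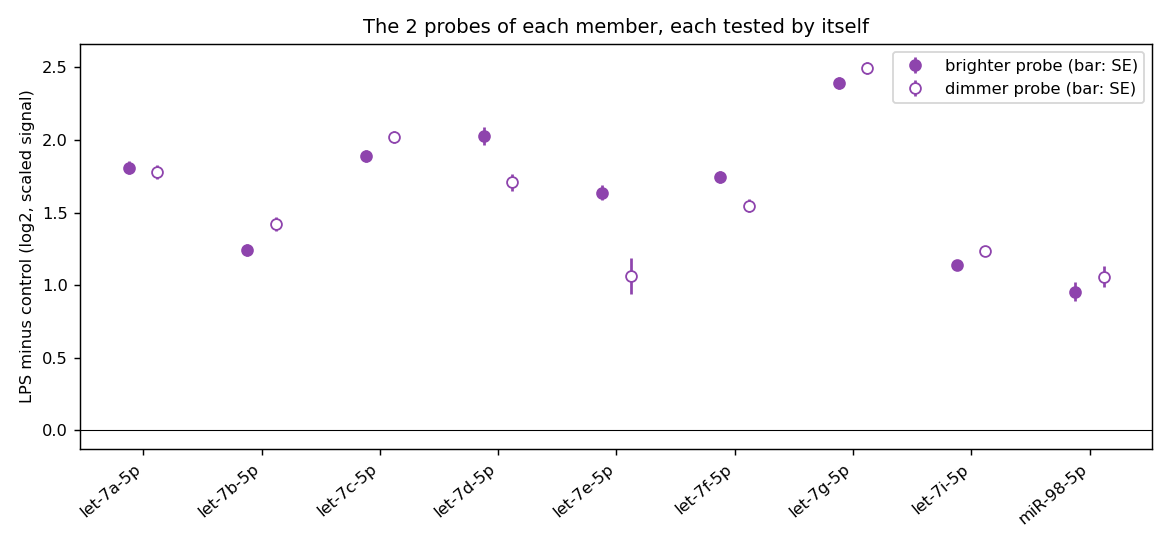
Log2 change, LPS minus control, of the brighter probe (filled) and the dimmer probe (open) of each member, with bars for the SE; let-7k, whose probes were not tested, is left out. All 18 probes lie above 0, and the probes of a member lie closest for let-7a-5p (1.81 and 1.78) and farthest apart for let-7e-5p (1.64 and 1.06).

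Other products of the let-7 loci were mostly absent or dim. Of the 12 passenger arms and related forms on the array, 11 were detected on no array, and the single one tested, let-7d-3p, was called lower in LPS. This arm comes from the same precursor as let-7d-5p and has another seed, in capitals here.
let-7d-3p: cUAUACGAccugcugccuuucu
Its processed signal was 103, 119 and 117 on the LPS arrays, against 66.3, 76.7 and 79.0 on the control arrays, so it was 1.53-fold higher before scaling and lower after it (log2 change −1.61, SE 0.04, limma adjusted p = 9.20e-08), where 26.7% of the miRNAs tested were called lower. The change was positive without scaling (0.61), with the spike-in RNAs (0.80) and with the files' own gene total signal (2.202). Only 1 of its 4 probes was well above background on all arrays. Within an array, where scaling cancels, the guide arm let-7d-5p changed by 3.64 more than let-7d-3p on the log2 scale, with no overlap between the groups (two-sided exact permutation p = 0.1).

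Some let-7 genes lie in clusters with genes of the miR-99/100 and miR-125 families, whose 11 mature forms were all on the array. Of these, 8 were tested and 7 were called higher and 0 lower, where 65.5% of the miRNAs tested were called higher and 26.7% lower. Only 2 of the 8 were detected on all 6 arrays, and the other 6 entered the test through the LPS arrays alone. MiR-125b-5p, which in mouse macrophages targets Tnf mRNA, had 6439, 8672 and 8689.6 on the LPS arrays, against 378, 426 and 412 on the control arrays, without overlap. It rose by 2.06 on the log2 scale (SE 0.07, limma adjusted p = 3.37e-07). MiR-99a-5p, the neighbour of Mirlet7c-1, had 1320.3, 1589.8 and 1513 on the LPS arrays, against 139, 152 and 148 on the control arrays, and rose by 1.11 (SE 0.05, limma adjusted p = 8.14e-07). MiR-125a-5p, from the let-7e locus, was not well above background in control with a bound of at least 1.34-fold higher signal in LPS (limma adjusted p = 4.96e-07), but its change was −0.22 with normexp. No direction is read for miR-100-5p, miR-125a-3p, miR-99b-5p and miR-99b-3p, which had no bound above 1. MiR-99a-3p did not pass the test (−0.42, limma adjusted p = 0.154).

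Of the miRNAs related to let-7 by seed, miR-1961 is the 1 other mouse miRNA in the sequence table with the same bases 2 to 8, and it was detected on no array. MiR-202-3p, a let-7-like miRNA known from the gonads, differs from the family in the last base of the seed.
miR-202-3p: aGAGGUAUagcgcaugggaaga
It had 853, 749.7 and 746 on the LPS arrays, against 3.06, 7.15 and 5.99 on the control arrays. It was detected on no control array and entered the test through the LPS arrays alone. With the scaling and background used here, miR-202-3p was at least 5.19-fold higher in LPS (limma adjusted p = 3.48e-07). The size depended on the processing, with log2 changes from 1.44 to 5.88 over 24 alternatives, all of them positive. Its second probe, at 819.5, 747 and 749.9 on the LPS arrays, was at 0.87, 2.58 and 3.38 on the control arrays. MiR-196a-5p was called lower (−0.86, limma adjusted p = 1.86e-04), but no control array and only 2 LPS arrays had it well above background, so its direction is not read. Over all 3 lists of related miRNAs, 11 were tested, and 8 were called higher and 2 lower, against 65.5% and 26.7% of the miRNAs tested. Only 3 of the 11 were detected on all 6 arrays.

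The miRNAs outside the family whose pattern over the 6 arrays came closest to the mean of the 8 members were miR-29a-3p, miR-15b-5p, miR-6997-5p, miR-3473b and miR-18a-5p. Closeness was measured as the Euclidean distance between scaled log2 values centred on each miRNA's mean, and it was 0.058 for miR-29a-3p, 0.090 for miR-15b-5p and 0.107 for miR-18a-5p. Among the members themselves the distance to this mean ran from 0.12 for let-7f-5p to 0.91 for let-7g-5p. Because the arrays of a group lay close together, the distance mostly follows how near a change is to the members' mean change. It therefore adds little to the changes themselves, which were 1.58 for miR-15b-5p, 1.60 for miR-3473b and 1.68 for miR-18a-5p. MiR-29a-3p had 10190.1, 11867 and 11922 on the LPS arrays, against 727, 788 and 784 on the control arrays, a log2 change of 1.66. MiR-6997-5p (0.098) was undetected in control and its bound was under 1, so its place in this order rests on the floor.

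The size of the changes depended on how the arrays were scaled, while a factor common to an array leaves the differences among the 8 members as they are. The median change of the 8 members was 1.78 here, 1.46 with median centring and 1.44 with quantile normalization, but 2.97 when the 75th percentile was taken over every miRNA on the array, 4.001 without scaling and 4.19 with scaling to the spike-in RNAs. The median over the 198 miRNAs moved with it, to 0.45, 0.32, 1.96, 2.99 and 3.18 in the same order, against 0.77 here. The members' median exceeded it by 1.01 with each array-wide scaling factor, by 1.12 with quantile normalization and by 1.36 with normexp. Of all calls, 71.1% were higher in LPS here, against 85.1% with that percentile over every miRNA, 90.3% with no scaling, 90.7% with the spike-in RNAs and 28.5% with normexp. With normexp 7 of the 10 members were still called higher, let-7a-5p, let-7b-5p, let-7c-5p, let-7d-5p, let-7f-5p, let-7g-5p and let-7i-5p. LPS sample 1 and the controls lay in the first row of the slide and the other LPS samples in the second. With the row as a block all 10 members were called higher, and within the first row, where the controls alone supply the spread, all 10 were too, with a median change of 1.80 for the 8.

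**Figure D5:**
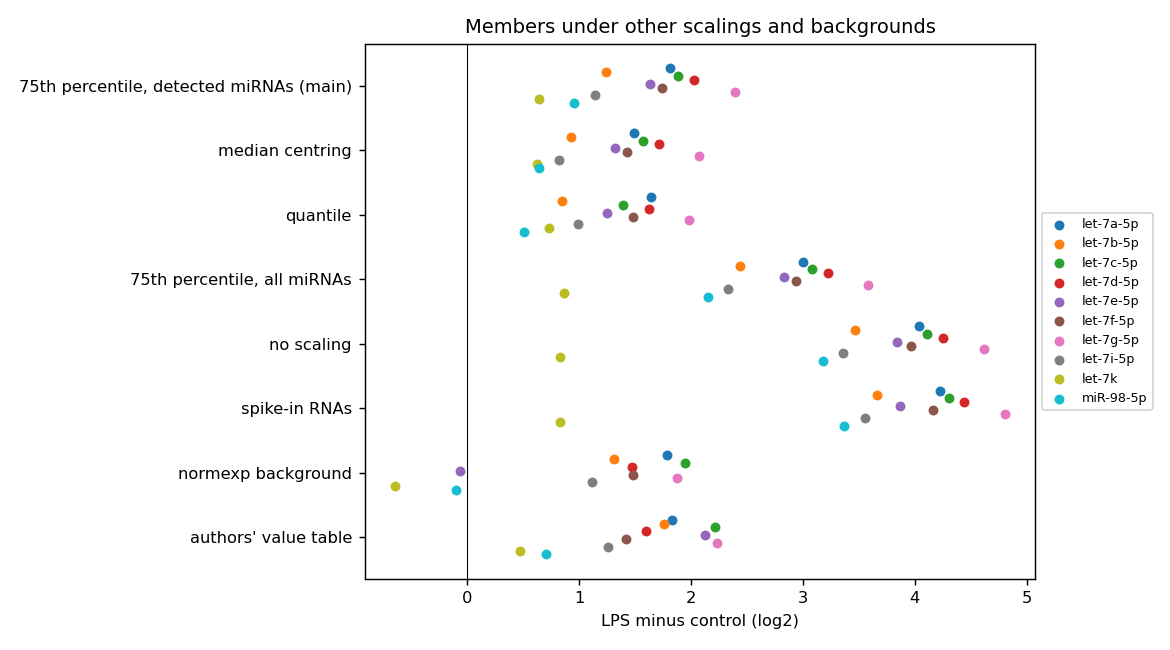
Log2 change, LPS minus control, of each of the 10 members under 8 ways of scaling or background correction, 1 row each. Let-7g-5p has the highest point in every row but that of normexp; with no scaling or the spike-in RNAs all members but let-7k lie above 3, and with normexp let-7e-5p, let-7k and miR-98-5p lie below 0.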

How the data were processed

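Exosomal RNA of 3 LPS and 3 control samples was hybridised to 1-colour (Cy3) Agilent mouse miRNA arrays; per the labels' protocols 0.5 µg of RNA was labelled, and the kit named there makes cRNA. Per the file headers, the deposited scanner output holds intensity values that Agilent Feature Extraction 10.7.1.1 had background-subtracted per spot; the submitters' processing notes name version 9.1. Spot and gene flags of 0 or 1 in these deposited files were used for detection. The authors also deposited a log2 value table, whose column medians were 2.73 to 2.74 and whose scale correlated at r = 0.896 to 0.963 with the log2 processed signal over the 198 miRNAs found on all arrays; its normalization and centring are not given in the sources used here.

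Processed signal was averaged over a probe's spots without control and outlier spots, and the brightest probe stood for its miRNA. Scaling divided every array by the 75th percentile of the 198 miRNAs that all 6 arrays detected. Values under 9.89 (log2 3.31), the median of the arrays' lowest scaled values among detected miRNAs, were set to that floor before log2 was taken. The 412 miRNAs detected on 3 of 3 arrays of a group were fitted with limma 3.58.1 (lmFit and eBayes, R 4.3.3), two-sided, with Benjamini-Hochberg adjustment over all of them and a threshold of 0.05; the 665 probes with over 50% of spots well above background on the 3 arrays of a group were fitted likewise. Bounds use, per array, the higher of the probe's own signal and the lowest signal well above background. Differences within an array were tested over the 20 splits of the 6 arrays, exactly. The fit was checked on simulated data. The members, the lists of related miRNAs and the markers were chosen with earlier results of these data known. Named were all members with their probes, the detected miRNAs of the lists, and the 5 tested miRNAs nearest in profile. Alternatives covered the scaling, background correction (normexp, offset 50), probe summary, filter, detection, floor, variance, slide row, replicate block and leaving out each replicate. No replicates held identical values; LPS samples 2 and 3 were the most alike (SD of the log2 difference 0.0486, against 0.0771 to 0.149 in the other pairs of a group). Same-numbered LPS and control arrays did not deviate together (r = −0.40, −0.22 and −0.28 over 198 miRNAs), so the numbers were not taken as pairs. The number of arrays limits the precision.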

Additional observations from a re-analysis of the deposited data

Results flagged for a closer look

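The gene total signal that the files hold beside the processed signal was not used in the comparisons, and for let-7k it departs from the probes. It averaged 2181 over the 3 LPS arrays and 2.06 over the 3 control arrays (1954, 2313 and 2277 in LPS, against 2.08, 1.95 and 2.16 in control). The totals of let-7k's own probes summed to 10.2, 10.6 and 8.98 on the LPS arrays. On each LPS array the gene total equalled the gene total of let-7i-5p (1945, 2302 and 2267) plus the total of let-7k's brighter probe (9.04, 10.5 and 9.45), to within 0.002. On the control arrays no such sum was seen. The gene detection flag through which let-7k entered the test is also given per gene. Whether it was touched by this departure was not tested. The processed signal of let-7k's brighter probe, 31.5 to 35.8 in LPS and 1.94 to 3.80 in control, is the value used above, and the gene total was read only as an alternative.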

How the results depend on the processing

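Let-7a-5p, let-7b-5p, let-7c-5p, let-7d-5p, let-7f-5p, let-7g-5p and let-7i-5p were called higher in LPS under each of the 25 alternatives, with log2 changes between 0.82 (let-7i-5p, median centring) and 4.803 (let-7g-5p, spike-in RNAs). Members called higher numbered 10 in every setting but normexp (7), a floor 2 times as high (9, let-7k at 0), well above background as detection (9 of 9 tested) and detection on all 6 arrays (8 of 8). Leaving out 1 replicate at a time kept 10 members, with 263 to 273 miRNAs called higher and 108 to 116 lower. Single probes called higher were 18 or more except with normexp (14, and 2 lower), and they were 18 to 19 with 1 replicate left out. The replicate numbers were not taken as pairs; with the replicate block 10 members, 270 miRNAs and 18 member probes were higher and 110 miRNAs lower, with no call changed among the members.

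The count of miRNAs called lower, 110 here, was 59 with the percentile over all miRNAs, 39 without scaling, 38 with the spike-in RNAs, 284 with normexp and 269 with no filter, and that of higher calls, 270 here, was 113 with normexp, 115 with detection on all 6 arrays as the filter and 170 with well above background as detection. Of the related miRNAs, 8 higher and 2 lower here, those higher were 3 with normexp, 2 when detection on all 6 arrays was asked for and 5 with well above background as detection. Those lower were 1 with the percentile over all miRNAs, the value table, detection on all 6 arrays and well above background, 0 without scaling, with the spike-in RNAs and with the gene total, and 8 with normexp and with no filter. The filters and the detection rule change how many miRNAs are tested; for the other settings the cause was not tested.

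Directions turned for miR-99a-3p with the percentile over all miRNAs (0.67), no scaling (0.75), spike-in RNAs (0.76), quantile normalization (0.34), gene total (3.63) and value table (0.26). They turned for miR-196a-5p with the percentile over all miRNAs (0.34), no scaling (1.07), spike-in RNAs (1.08) and gene total (0.57), and for let-7d-3p with no scaling (0.61), spike-in RNAs (0.80) and gene total (2.202). With normexp the changes were −0.066 for let-7e-5p, −0.64 for let-7k, −0.10 for miR-98-5p, −0.81 for miR-100-5p, −0.62 for miR-99b-5p, −0.58 for miR-99b-3p, −0.22 for miR-125a-5p and −0.84 for miR-125a-3p. Relative to the family mean, let-7f-5p turned to −0.0073 with the mean over probes, and normexp gave 0.43 for let-7a-5p, −0.049 for let-7b-5p, 0.58 for let-7c-5p, 0.11 for let-7d-5p, 0.12 for let-7f-5p, 0.51 for let-7g-5p, −0.24 for let-7i-5p and −1.46 for miR-98-5p. Between members, in alternatives chosen after seeing the data, let-7a-5p minus let-7d-5p turned to 0.071 with the dimmer probes, 0.012 with quantile normalization and 0.32 with normexp, and with quantile normalization let-7a-5p minus let-7c-5p turned to 0.25 and let-7c-5p minus let-7f-5p to −0.092. The cause was not tested. With each replicate left out in turn, an alternative chosen after seeing the data, that measure ran from 0.14 to 0.18 for let-7a-5p, −0.42 to −0.39 for let-7b-5p, 0.23 to 0.25 for let-7c-5p, 0.34 to 0.41 for let-7d-5p, 0.078 to 0.11 for let-7f-5p, 0.72 to 0.76 for let-7g-5p, −0.53 to −0.48 for let-7i-5p and −0.72 to −0.65 for miR-98-5p. Signal close to background in the control samples limits let-7e-5p, let-7k and miR-98-5p.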
